A study of Homo sapiens with 8 samples.

Results

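Palbociclib was compared in cells that also received TCP: the combination of palbociclib and TCP was set against TCP alone, gene by gene. The comparison rested on 4 of the 8 RNA-seq libraries of the series, and on 14151 of the 26364 gene symbols in the table, those that reached at least 1 TPM in at least 2 of the 8 libraries. TPM is a level per unit of transcript length, scaled to the same sum in every library.

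MV4-11 is a human acute myeloid leukemia (AML) cell line that carries FLT3-ITD and the MLL-AF4 fusion, and the libraries therefore describe a single line. The 4 groups were control cells with vehicle (DMSO), cells with TCP at 5 μM, cells with palbociclib at 0.5 μM and cells with both, each at day 4 and each with 2 libraries. The study grew its AML lines on the human stromal line HS-5, and its methods give 1 day of palbociclib before the second molecule, so that the length of exposure to TCP without palbociclib, 3 or 4 days, cannot be told from the sources used here. Nothing in the labels says that the 2 libraries of a group came from separate cultures, and p-values then measure only the spread between these libraries.

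Palbociclib blocks the kinases CDK4 and CDK6, which phosphorylate the retinoblastoma protein in G1 and so release the E2F factors that drive genes of DNA replication and mitosis. TCP (tranylcypromine) inhibits LSD1, the histone demethylase encoded by KDM1A, which works with GFI1 and the CoREST complex to keep myeloid differentiation genes silent. AML blasts are arrested before they become monocytes or granulocytes, and both molecules are known to push such cells towards maturation.

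In the combination 1720 genes differed from TCP alone, which is 12.2% of those tested. A gene was called a DEG (differentially expressed gene) where limma on log2(TPM + 1) gave a change of 1 or more in either direction on the log2 scale with an adjusted p (Benjamini-Hochberg) under 0.01. Of these, 772 were higher (5.46% of genes tested) and 948 lower (6.7%). Counts of called members in the lists below stand beside these shares. In each of the 1720 DEG both combination libraries lay beyond both TCP libraries, as they did in 74.8% of all genes tested, 25.9% being higher and 48.9% lower. Increases reached further: 236 DEG were up by at least 2 on the log2 scale against 70 that were down by as much, and 26 were up by at least 4 against 2 down. The median of all genes tested was -0.18, and the top 10 entries, led in every library by MIR6087, took 15.8% and 15.6% of all TPM in the combination against 9.42% and 9.66% with TCP. Under median-ratio scaling, which set that median near 0, 62.1% of DEG were higher instead of 44.9%, and under quantile normalization 55.8% were. Another 2882 genes had an adjusted p below 0.01 with a smaller change.

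**Figure D1:**
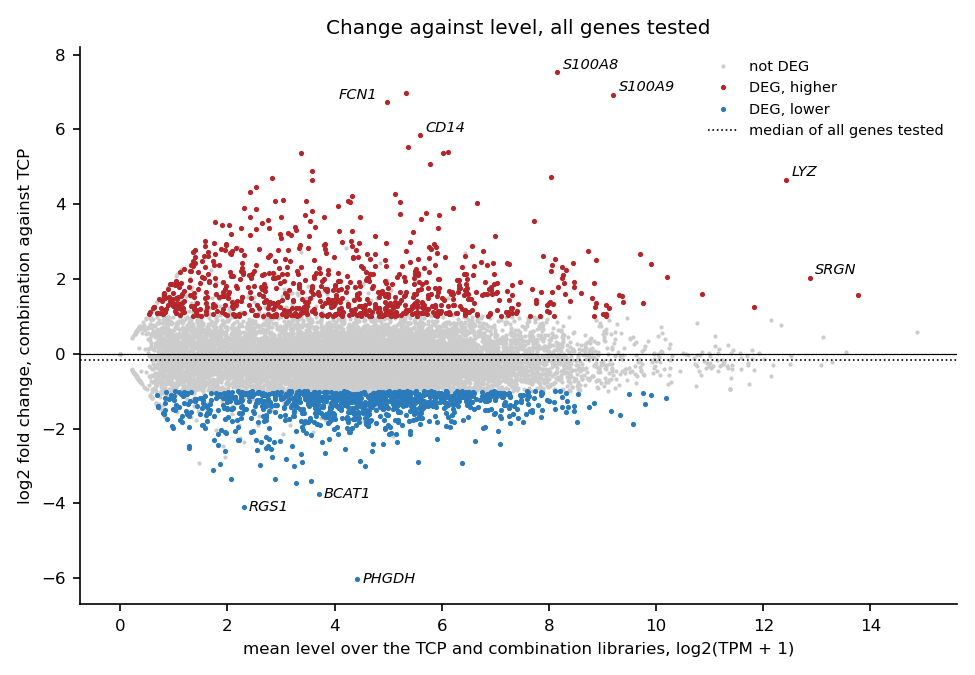
Log2 fold change of the combination against TCP (vertical axis) against the mean level over the 4 libraries (horizontal axis, log2(TPM + 1)) for the 14151 genes tested. Red points are the 772 DEG that were higher, blue points the 948 that were lower, grey points are not DEG, and the dotted line is the median of -0.18. S100A8 lies at the top at 7.53 and PHGDH at the bottom at -6.02.

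Promoter sequences of some of the lower genes are shown first, as examples of the letters searched just before the start sites. All are RefSeq windows of GRCh38.p14, written 5′ to 3′ on the strand of the gene and ending at the base before the start site. Every match to the letters searched is in capitals (E2F core, CHR, CCAAT box, ATF4 element, C/EBP palindrome TTGCGCAA, PU.1 core AGGAAGT). PRIM1 (chr12:56752324-56752433, minus strand) and CDT1 (chr16:88803679-88803788, plus strand) stand for the replication genes and carry the E2F core TTCCCGC, read as GCGGGAA on the other strand. In PRIM1 the core shares a base with a CCAAT box.
PRIM1: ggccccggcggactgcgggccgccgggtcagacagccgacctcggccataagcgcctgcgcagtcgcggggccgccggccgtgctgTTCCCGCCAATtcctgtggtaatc
CDT1: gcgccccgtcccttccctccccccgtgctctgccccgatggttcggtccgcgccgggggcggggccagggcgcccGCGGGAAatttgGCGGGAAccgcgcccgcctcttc

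CCNB2 (chr15:59105016-59105145, plus strand) and PLK1 (chr16:23678779-23678888, plus strand) are mitotic genes whose stretches hold both CCAAT boxes, the letters bound by NF-Y, and a CHR element (TTTGAA), bound by the DREAM and MuvB complexes.
CCNB2: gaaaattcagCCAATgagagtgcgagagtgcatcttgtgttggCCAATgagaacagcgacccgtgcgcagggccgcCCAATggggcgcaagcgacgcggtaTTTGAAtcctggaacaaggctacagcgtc
PLK1: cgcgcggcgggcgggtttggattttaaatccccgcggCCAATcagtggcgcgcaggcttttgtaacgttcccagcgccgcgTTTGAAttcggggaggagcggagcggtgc

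ASNS (chr7:97872409-97872518, minus strand) and BCAT1 (chr12:24949102-24949211, minus strand) are amino acid response genes that carry a C/EBP-ATF element (TGATGAAA or TGATGCAA), the site through which ATF4 acts. They are not typical of their list, in which 5 of 26 windows (19.2%) held such an element. In ASNS an E2F core follows it.
ASNS: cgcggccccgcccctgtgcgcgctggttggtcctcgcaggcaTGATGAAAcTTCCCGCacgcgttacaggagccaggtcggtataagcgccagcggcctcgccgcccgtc
BCAT1: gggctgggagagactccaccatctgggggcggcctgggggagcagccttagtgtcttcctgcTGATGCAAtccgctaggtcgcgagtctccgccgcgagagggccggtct

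The share of windows with such letters was counted on both strands in 300-base windows, from 250 bases before to 50 after the start site. An E2F core (TTCCCGC or TTGGCGC) was found for 26 of 44 replication genes (59.1%), for 13 of 27 genes of homologous recombination and checkpoints (48.1%) and in 9.33% of all 27305 windows of the table. A CHR (TTTGAA or TTCGAA) was found for 34 of 46 mitotic genes (73.9%) against 16.6% of all windows, and a CCAAT box also for 34 of 46 (73.9%) against 35.7%. Both were in the same window for 26 of 46 mitotic genes (56.5%) against 6.58% of all windows, while 8 held only a CHR, 8 only a CCAAT box and 4 neither. The ATF4 element was found for 5 of 26 windows of the ATF4 list (19.2%) against 2% of all windows. The replication genes held a CHR in 4.55% of windows and the mitotic genes an E2F core in 19.6%. All windows of the table include genes that were not tested. Of the genes tested 73.7% had a window. In these windows the shares were 14.4% for an E2F core, 11.7% for a CHR, 37.0% for a CCAAT box and 0.911% for the ATF4 element. These matches are a description of letters and not of bound sites. They are shown for 4 of the lists in which at least 80% of the tested members had a window. Among the lists not shown, E2F and pocket protein genes held an E2F core in 50% of windows and nucleotide synthesis genes in 15%. A CHR was in 15% of the nucleotide synthesis windows and in 33.3% of those of cytokine and chemokine receptors. The same count over all DEG is void, because 69.7% of the higher and 73.6% of the lower DEG had a window.

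Of the targets of the molecules and their partners, 1 passed the test. CDK4, the G1 kinase that palbociclib inhibits, had 177 and 207 TPM with TCP and 89.1 and 93.6 TPM in the combination, a change of -1.06 ± 0.10 (log2 fold change ± SE, n = 2 libraries each, adjusted p from limma 0.000258). It was the only DEG among the 13 tested (7.69%, beside 12.2% of all genes tested), and it fell short of the threshold of 1 under both other scalings. CDK6 had 117 and 122 TPM with TCP against 107 and 100.4 in the combination (-0.21 ± 0.11, adjusted p 0.142), and RB1, which encodes the retinoblastoma protein, had overlapping libraries (136 and 103 against 114 and 105). KDM1A was lower in both combination libraries, at 47.5 and 45.6 against 83 and 79.6 TPM, a change of -0.79 ± 0.08 that did not reach the threshold of size. GFI1, which recruits LSD1, was at 196 and 221 TPM in the combination against 199 and 194 with TCP, with overlapping libraries.

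Among the G1 cyclins and inhibitors 3 of 13 changed (23.1%, beside 12.2% of all genes tested). CDK2 fell from 70.9 and 88.8 TPM to 31.7 and 30.2 (-1.33 ± 0.13, adjusted p 0.000261), and CDKN2A, which encodes the CDK4 and CDK6 inhibitor p16 as well as ARF, fell from 102 and 101 to 41.5 and 40.4. CCND3, a D-type cyclin that activates these kinases, rose from 181 and 200.1 TPM to 366 and 410.0 (1.02 ± 0.09, adjusted p 0.000177). The cyclin E genes, which are themselves E2F targets, did not pass: CCNE1 libraries overlapped (27.2 and 37.1 against 21.2 and 27.5) and CCNE2 went from 41.6 and 45.5 to 29.3 and 29.2 TPM (-0.56 ± 0.09). CDKN1A, encoding p21, was at 9.85 and 5.04 against 7.63 and 7.96 TPM, and its groups overlapped. Another inhibitor of the same family, CDKN1B, was at 154 and 144 against 87 and 105 TPM (-0.63 ± 0.12).

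Genes of the dividing cell fell as groups. Of 53 mitotic genes 49 fell and none rose, with a median of -1.49 and all 53 lower in both combination libraries, as were 48.9% of all genes tested. AURKB, the kinase of the chromosomal passenger complex, had 63.2 and 74 TPM with TCP and 14.9 and 15.1 in the combination, a change of -2.12 ± 0.11 (adjusted p 4.02e-05). CDK1, the mitotic kinase, went from 95.6 and 89.1 to 24.2 and 24.2 TPM (-1.89 ± 0.09, adjusted p 3.08e-05). PLK1, whose promoter is shown above, went from 121 and 161 to 33.8 and 44.5, and CCNB2, a mitotic cyclin, from 116 and 131 to 37.5 and 37.3. The smallest decreases of the list were those of CKS2 (-0.79), AURKA (-0.80), BUB3 (-0.89) and ECT2 (-0.91), which were not called.

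Replication genes followed, with 37 of 49 lower (75.5%, beside 12.2% of all genes tested called), none higher and a median of -1.20. POLE2, a subunit of DNA polymerase epsilon, had 19 and 18.8 TPM with TCP against 3.52 and 4.06 (-2.06 ± 0.14, adjusted p 7.27e-05). PRIM1, the catalytic subunit of primase, went from 60.6 and 59.3 to 14.5 and 14.5 TPM (-1.97 ± 0.08). CDT1, which loads the MCM helicase, went from 106 and 118 to 30.9 and 31.6. The exception in direction was RPA2, a subunit of the single-strand binding protein, at 108 and 123 against 148 and 143 TPM (0.33 ± 0.10, adjusted p 0.0255). Under median-ratio scaling 25 replication genes were called and under quantile normalization 28, with medians of -1.01 and -1.07.

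Of 23 genes for nucleotide synthesis 9 fell and 1 rose. TYMS, thymidylate synthase, went from 306 and 359 TPM to 113 and 105 (-1.60 ± 0.10, adjusted p 6.62e-05), and RRM2, the small subunit of ribonucleotide reductase, from 182 and 223 to 67.6 and 75. SAMHD1, which degrades dNTPs, was the gene that rose, from 135 and 167 to 471 and 475 TPM (1.65 ± 0.13, adjusted p 0.000149). Of 31 genes for homologous recombination and checkpoints 14 fell, led by CHEK1 (38.1 and 40.3 against 8.91 and 8.05 TPM, -2.09 ± 0.13). BRCA2 (-0.16) and ATM (-0.07) were not called, and both values were above 0 under median-ratio scaling.

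Of 19 E2F and pocket protein genes 6 fell and none rose, activators and repressors alike: MYBL2, E2F8, FOXM1, E2F7, E2F1 and LIN9. They are 31.6% of the list, beside 12.2% of all genes tested that were called. E2F1, an activator, went from 49.5 and 71.1 to 21 and 27.2 TPM (-1.28 ± 0.21, adjusted p 0.00244), and FOXM1, the factor of G2 genes, from 62.5 and 80 to 20.7 and 27.8. RBL1 (p107) was at -0.93 ± 0.10, whereas the libraries of RBL2 (p130), the pocket protein of resting cells, overlapped between groups.

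**Figure D2:**
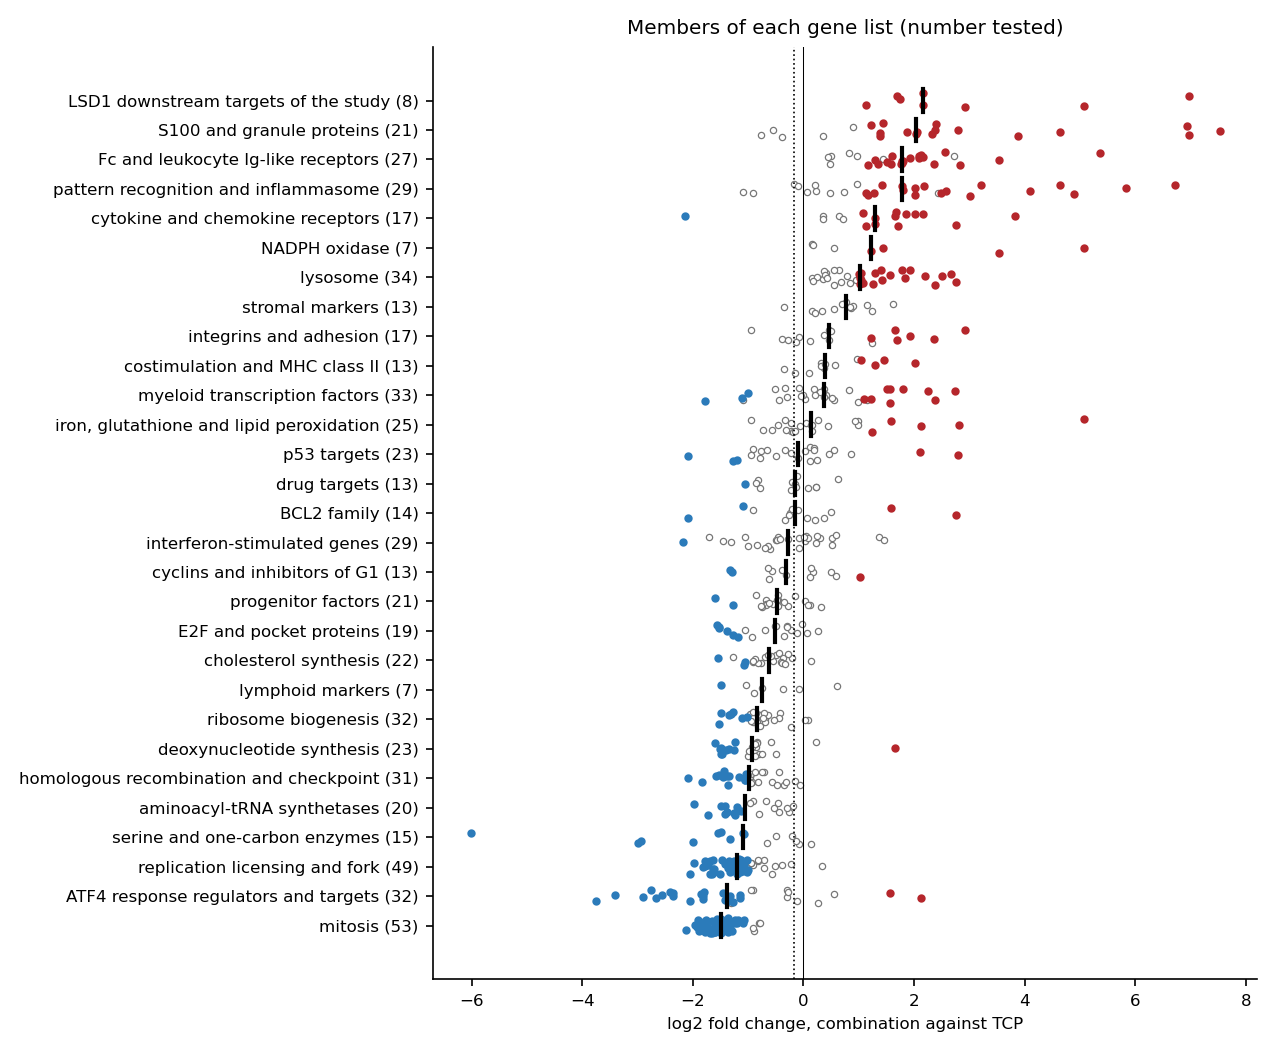
Log2 fold change of the combination against TCP (horizontal axis) for the tested members of each pathway or gene group list with at least 7 of them (number in brackets), without the short marker sets used to check the cell type, ordered by the list median (black bar). Filled red and blue points are DEG, open points are not, and the dotted line is the median of all genes tested. Mitosis lies lowest with a median of -1.49, and of the lists drawn the LSD1 downstream targets of the study lie highest at 2.16.

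The largest single decrease was PHGDH, the first enzyme of serine synthesis (chr1:120191034-120286841 in GRCh37, the build of the authors' mapping). It had 249.5 and 116 TPM with TCP and 1.3 and 2.06 in the combination, a change of -6.02 ± 0.38 (adjusted p 6.27e-05). PSAT1, the next enzyme, went from 301 and 175 to 32.1 and 26.5 TPM (-2.93 ± 0.27), and PSPH, the last, from 71 and 52.5 to 19.6 and 20.9 (-1.55 ± 0.16). Of 15 serine and one-carbon genes 9 fell (60%, beside 12.2% of all genes tested called) and none rose. They include the mitochondrial enzymes SHMT2, which went from 302 and 263 to 102 and 97.6 TPM, MTHFD1L and ALDH1L2 (-2.99 ± 0.48). MTHFD2, which acts between them, was at 416 and 267 against 251 and 221 TPM (-0.50 ± 0.23, adjusted p 0.103).

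ATF4 itself, the transcription factor that raises amino acid synthesis and import when amino acids are short, fell from 712 and 687 TPM to 249 and 273 (-1.42 ± 0.08, adjusted p 4.16e-05). Of the 32 tested genes of its list 21 fell and 2 rose, with a median of -1.38. ASNS, asparagine synthetase, went from 188 and 85.9 to 16.5 and 15.8 TPM (-2.90 ± 0.36, adjusted p 0.000734). BCAT1, the branched-chain aminotransferase, went from 64.5 and 33.7 to 3.14 and 2.04 (-3.75 ± 0.31). The transporters SLC7A5, which went from 370.3 and 264 to 54.4 and 62 TPM, and SLC1A5, from 308 and 278 to 80.2 and 81.4, were part of the decrease. Against the direction of the list, SLC7A11, which imports cystine, rose from 23.3 and 11.6 to 72.9 and 78.5 TPM (2.13 ± 0.28, adjusted p 0.000937), and CEBPB, which also belongs to the myeloid factors, rose from 61.5 and 62.6 to 185 and 185.

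The 2 TCP libraries differed in this group, replicate 1 being higher by a median of 0.62 on the log2 scale over the ATF4 list and by 0.05 over all genes. In the combination libraries the same gap was 0.01. Without TCP replicate 1 the list had 18 called members and a median of -1.23, and without TCP replicate 2 it had 26 and -1.69. Without combination replicate 1 16 members were called, without combination replicate 2 15, and with only the 2 groups compared in the fit also 15.

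Cytosolic aminoacyl-tRNA synthetases, which charge tRNAs with amino acids, fell in 10 of 20 cases with a median of -1.05 and none rose. GARS, for glycine, went from 249.9 and 185 to 52 and 55.7 TPM (-1.98 ± 0.14, adjusted p 8.87e-05), and AARS, for alanine, from 281 and 221 to 75.4 and 73.9. QARS, for glutamine, was at 312 and 323 against 282 and 278 TPM (-0.18 ± 0.06). Ribosome biogenesis genes had a median of -0.84 with 7 of 32 lower, among them NPM1, the nucleolar chaperone, from 736 and 710.3 to 298 and 282 TPM (-1.32 ± 0.09) and NCL, nucleolin, from 1312 and 1526 to 664 and 644. Without TCP replicate 1 13 of them were called. Of 22 genes of cholesterol synthesis 3 fell: INSIG1, HSD17B7 and FDPS. These are 13.6% of the list, beside 6.7% of all genes tested that were lower and 12.2% called in either direction. That count was 1 without TCP replicate 1 and under either other scaling, and 7 without TCP replicate 2. HMGCS1 was at 172 and 83.5 against 51.2 and 46.6 TPM (-1.28 ± 0.31, adjusted p 0.0135, and 0.00304 with the replicate number as a block).

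Among the other genes of the 15 largest decreases CBS, the first enzyme of transsulfuration, is a member of the ATF4 list (-3.41 ± 0.34). RGS1, a regulator of G-protein signalling, had 33 and 11.2 TPM with TCP and 0.233 and 0.152 in the combination (-4.10 ± 0.42). ETV4, an ETS factor downstream of growth signalling, went from 27 and 28.2 to 2.84 and 2.9 TPM (-2.89 ± 0.16, adjusted p 4.16e-05). ENO2 (-3.44), OCSTAMP (-3.35), ADM2 (-3.34), NDUFA4L2 (-3.11), VAT1L (-3.00), FHL1 (-2.98) and ULBP1 (-2.94) complete the 15.

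**Figure D3:**
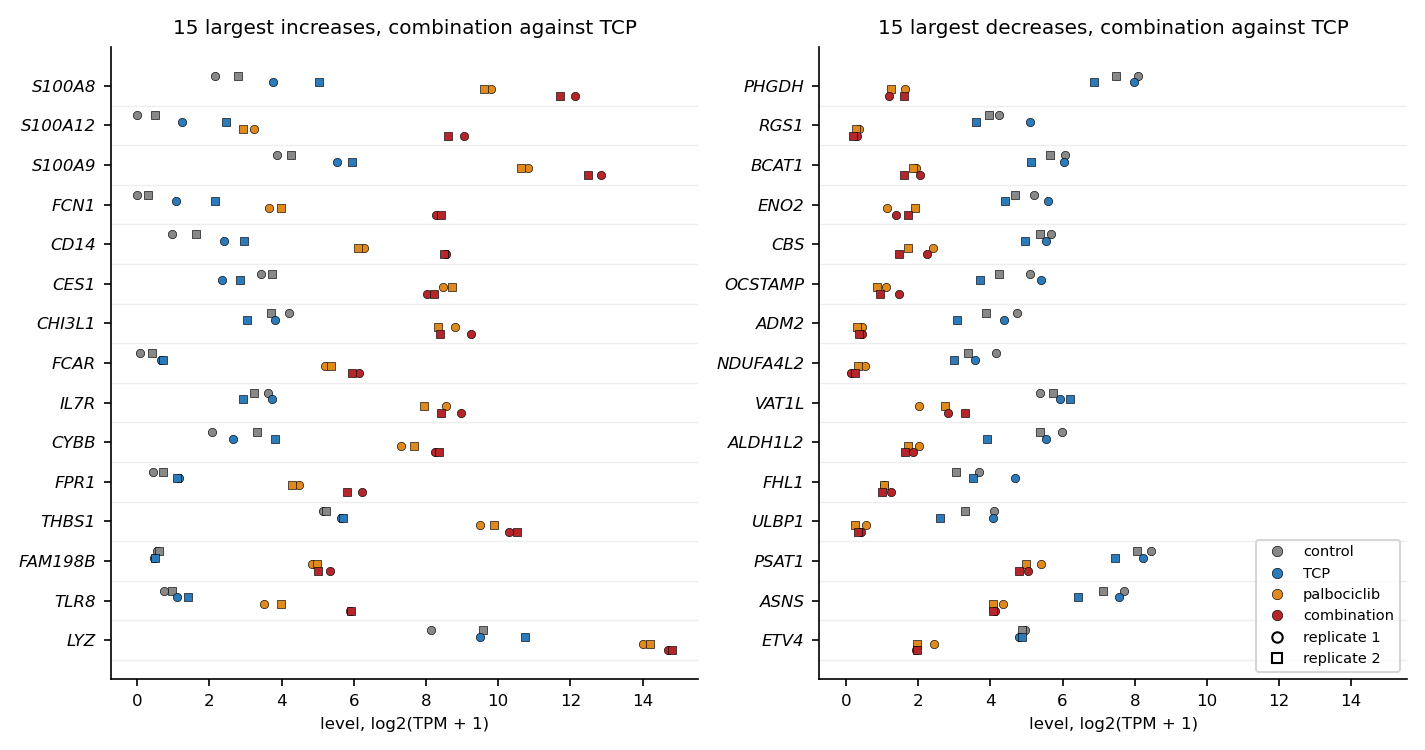
Level of the 15 genes with the largest increases and the 15 with the largest decreases in each of the 8 libraries (horizontal axis, log2(TPM + 1)). Colours mark the 4 groups, circles replicate 1 and squares replicate 2, and there are no error bars because each point is a library. Genes were drawn only if both combination libraries lay beyond both TCP libraries, so that separation is part of the choice and not a result.

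Of 21 progenitor genes tested, FLT3 and MEF2C fell, none rose, and the median was -0.48. These 2 of 21 lie near the 6.7% of all genes tested that were lower. FLT3, the receptor that is mutated in this line, went from 263 and 182 to 81.1 and 62.6 TPM (-1.61 ± 0.22, adjusted p 0.0012). MEF2C, a factor active in MLL-fusion leukemia, went from 157 and 125 to 61.7 and 53.2. The fusion targets HOXA9 (-0.67 ± 0.11) and MEIS1 (-0.47 ± 0.11) and the oncogene MYC (709 and 732 against 471 and 431 TPM, -0.68 ± 0.07) were lower in both combination libraries without reaching the threshold of size. MYB was at -0.27 ± 0.11 and KIT at about 1 TPM or less in the TCP and combination libraries. Of the 7 markers listed for the line, all tested, FLT3 fell and CD4 rose, from 177 and 164 to 418 and 438 TPM (1.32 ± 0.08), 4 of 7 changes were above 0 and the median was 0.04. Of 10 monocyte and macrophage markers 8 rose, with a median of 2.38. Neutrophil markers rose too, in 3 of the 4 tested of 9 listed, with a median of 1.38. The only dendritic cell marker tested, of 5 listed, rose by 3.345 on the log2 scale.

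On the other side stood proteins of mature myeloid cells. The 3 S100 genes of myeloid cells, which lie together on chromosome 1 and encode the calcium-binding alarmins of the cytosol, had the largest increases. S100A8 had 12.5 and 31.5 TPM with TCP and 4434 and 3357 in the combination, a change of 7.53 ± 0.40 (adjusted p 4.16e-05). S100A9 went from 45 and 60.5 to 7343 and 5756 TPM (6.93 ± 0.20, adjusted p 7.07e-06), and S100A12 from 1.37 and 4.53 to 527 and 386 (6.96 ± 0.39). In each of them the groups lay far apart. LYZ, the lysozyme gene, rose from 718 and 1696 to 26591 and 28617 TPM (4.64 ± 0.52, adjusted p 0.000516) and was among the most abundant entries.

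Of 21 S100 and granule proteins 16 rose and none fell, with a median of 2.04. The list also held the primary granule genes of the promyelocyte: PRTN3 (proteinase 3) rose from 419 and 417 to 2534 and 1918 TPM (2.40 ± 0.15), AZU1 (azurocidin) by 2.05 ± 0.08 and ELANE (neutrophil elastase) from 425 and 401 to 1115 and 1034. CTSG, the cathepsin G gene of the same granules, was at 22.6 and 13.1 against 9.77 and 13.5 TPM with overlapping libraries. S100A10 (-0.38) and CST7 (-0.78) were not called either.

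Receptors that sense microbes rose in 18 of 29 cases and none fell, with a median of 1.78. FCN1 (ficolin-1, a lectin secreted by monocytes) went from 1.1 and 3.47 to 306 and 339.7 TPM (6.72 ± 0.33, adjusted p 3.67e-05). CD14, the co-receptor for lipopolysaccharide (chr5:140011313-140013285, GRCh37), went from 4.32 and 6.7 to 374 and 359 (5.84 ± 0.24), and TLR4, its partner, from 7.48 and 8.15 to 51 and 52.1. The formyl peptide receptors FPR1 (4.89 ± 0.18) and FPR2 (4.10 ± 0.14) and the RNA sensor TLR8 (1.15 and 1.67 against 57.9 and 59.8 TPM) rose as well. The inflammasome genes NLRP3 (-0.17), PYCARD (-0.09) and CASP1 (0.21) did not pass, and the first 2 values were above 0 under both other scalings.

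Fc and leukocyte immunoglobulin-like receptors rose in 20 of 27 cases, none fell, and all 27 were higher in both combination libraries, as were 25.9% of all genes tested. FCAR, the IgA receptor, had 0.586 and 0.627 TPM with TCP and 69.9 and 61.2 in the combination (5.37 ± 0.15, adjusted p 7.07e-06). FCER1G, the signalling chain of Fc receptors, rose from 80.3 and 45.7 to 669 and 772 TPM, and LILRB1, an inhibitory receptor for HLA class I, from 21.5 and 28.3 to 115 and 151. The oxidase that kills ingested microbes was part of the increase, with 4 of 7 genes higher. Among them CYBB, its membrane subunit, went from 5.27 and 13.1 to 305 and 329.8 TPM (5.08 ± 0.48), and NCF1 and NCF4, which encode cytosolic subunits, rose by 1.44 and 1.22 on the log2 scale.

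Cytokine and chemokine receptors rose in 12 of 17 cases. CSF1R, the receptor for macrophage colony-stimulating factor, went from 21.2 and 20.9 to 86.9 and 90.7 TPM (2.02 ± 0.07, adjusted p 1.6e-05), and CSF3R, its granulocyte counterpart, from 46.1 and 36.2 to 287 and 277. CX3CR1 (3.82 ± 0.29) and CCR2 (1.87 ± 0.25) are chemokine receptors of nonclassical and classical monocytes, and both rose. CCR7, the homing receptor of mature dendritic cells and lymphocytes, was the member that fell, from 7.39 and 5.58 to 0.927 and 0.474 TPM (-2.14 ± 0.24, adjusted p 0.000465).

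Lysosomal genes rose in 19 of 34 cases with a median of 1.02, and all 34 had a change above 0, as did 37.4% of all genes tested. PSAP, the saposin precursor, went from 179 and 146 to 1126 and 1076 TPM (2.76 ± 0.12, adjusted p 2.71e-05), GRN, progranulin, from 304 and 351 to 2001 and 2196, and CTSD, cathepsin D, from 188 and 206 to 1008 and 1241. NPC1 (0.16) and LAMP2 (0.24) were not called. Without TCP replicate 1 12 members were called and without combination replicate 2 11 were. Among 25 genes of iron, glutathione and lipid peroxidation 5 rose: CYBB, HMOX1, SLC7A11, FTL and FTH1. They are 20% of the list, beside 12.2% of all genes tested that were called. The ferritin light chain FTL went from 6955 and 9362 to 22105 and 26447 TPM (1.58 ± 0.20).

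Of 33 myeloid transcription factors 9 rose and 3 fell (36.4% called, beside 12.2% of all genes tested). NFE2 (2.74 ± 0.27), KLF4 (6.89 and 4.71 against 31.5 and 30.5 TPM), CEBPB (1.56 ± 0.07) and CEBPD (1.56 ± 0.13) were among those that rose. SPI1, encoding PU.1, was at 208 and 264 against 437 and 497 TPM, a change of 0.99 ± 0.14 just short of the threshold. CEBPA (0.41) and CEBPE (0.38), the factors of early and late granulocytes, were not called. BATF3, a factor of dendritic cells, fell from 6.13 and 3.58 to 0.665 and 0.652 TPM (-1.79 ± 0.24). Without TCP replicate 1 8 factors were called, and without combination replicate 2 7.

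Integrins and adhesion molecules were mixed, with 6 of 17 higher (35.3%, beside 12.2% of all genes tested called). VCAN, the proteoglycan versican of monocytes, rose from 14.7 and 17 to 88.4 and 81.8 TPM (2.36 ± 0.13, adjusted p 4.57e-05), and PECAM1 from 18 and 22 to 152 and 163. ITGAM, which encodes CD11b, was at 6.5 and 3.1 against 13.3 and 11 TPM (1.25 ± 0.31, adjusted p 0.0134, and 0.00264 with the replicate block, where it is called). CD86 was at 14.8 and 7 against 24 and 18.4 TPM (0.97 ± 0.31, adjusted p 0.0364). Of 13 costimulatory and MHC class II genes 4 rose, namely CD40, CD274, HLA-DQA1 and HLA-DPA1, a count that was 2 without combination replicate 1 and 0 without combination replicate 2. The costimulatory and MHC class II calls were 30.8% of their list, beside 12.2% of all genes tested. All 8 genes that the study lists as downstream of LSD1 rose, with a median of 2.16. The study chose that list on its own samples, so the count is no independent evidence of direction.

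CES1, a carboxylesterase of monocytes, had 4.13 and 6.13 TPM with TCP and a mean of 281 ± 26.8 TPM (SD, n = 2) in the combination (5.54 ± 0.18). The other large increases were CHI3L1, a secreted chitinase-like protein of macrophages (5.39 ± 0.36), IL7R, the interleukin-7 receptor chain (5.36 ± 0.33), and FAM198B (4.71 ± 0.15). THBS1, thrombospondin-1, rose from 48.6 and 51.1 to 1261 and 1454 TPM (4.74 ± 0.13, adjusted p 7.07e-06) and is made by monocytes as well as by stromal cells. Of 20 stromal markers 13 were tested, none was called, and 12 of 13 had a change above 0 with a median of 0.77. Their summed level was 42.6 and 55.8 TPM with TCP against 71.3 and 92.6 in the combination, COL1A1 being at 0.151 and 1.79 against 2.29 and 3.78 TPM, and POSTN at 0 in all 8 libraries. Their part in the increases was not tested, and in bulk RNA a larger share of a cell type and more RNA per cell cannot be told apart. Erythroid and megakaryocyte markers had 3 tested members and no call, and lymphoid markers 7 with 1 call, which was lower.

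Genes of cell survival changed in both directions, with 4 of 14 BCL2 family genes called (28.6%, beside 12.2% of all genes tested). Of 14 BCL2 family genes, BCL2A1 (2.77 ± 0.48) and BCL2L11, which encodes the death-promoting BIM (27.8 and 23.3 against 81.1 and 76.1 TPM), rose, while BCL2 itself (29.5 and 22 against 13.1 and 9.93 TPM, -1.09 ± 0.19, adjusted p 0.0034) and PMAIP1, encoding NOXA (125 and 59.4 against 21.7 and 17.8 TPM), fell. MCL1 was at 0.37 ± 0.07. These 4 calls became 2 without a filter on low values, without TCP replicate 1 or without combination replicate 1, and 1 without combination replicate 2 or with only the 2 groups fitted. Of 23 p53 target genes TP53INP1 (2.80 ± 0.24) and BTG2 (2.11 ± 0.12), both also known to slow division, rose, and PMAIP1, SESN2 and AEN fell. With 5 called (21.7%, beside 12.2% of all genes tested), this list had a median of -0.10, which was above 0 under both other scalings.

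The effect of palbociclib with TCP was then set beside its effect without TCP, from the palbociclib and control libraries, which are other libraries. Palbociclib alone changed 1288 genes against control (9.1% of those tested), 643 of them higher (4.54%) and 645 lower (4.56%). The lists shared 1088 genes, which is 63.3% of the DEG with TCP and 84.5% of those without, and all 1088 had the same direction, 540 higher and 548 lower. Of the 632 DEG found with TCP and not without, 622 had the same sign without TCP. The share of all genes tested with the same sign was not counted, so this number is not read as a result about these genes. Over all genes tested Pearson's r between the log2 fold changes was 0.895, a description across genes, which are not independent replicates. Median changes of the shared genes were 1.76 with and 1.59 without TCP for the higher ones, and -1.45 and -1.27 for the lower ones. Without palbociclib replicate 2, in which the stromal markers summed to 252 TPM against 48.2 in replicate 1, the effect without TCP counted 783 genes.

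**Figure D4:**
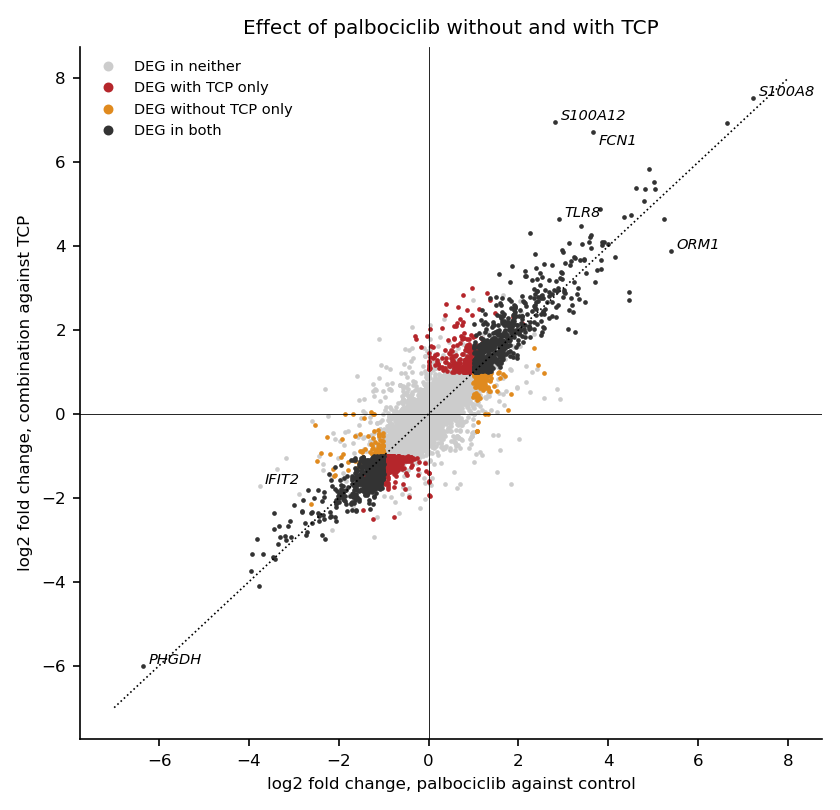
Log2 fold change of palbociclib with TCP (combination against TCP, vertical axis) against that without TCP (palbociclib against control, horizontal axis) for the 14151 genes tested. Black points are the 1088 DEG of both comparisons, red and orange points are DEG of 1 of them, and the dotted line marks equal effects. S100A12 and FCN1 lie above the line, at 6.96 and 6.72 with TCP against 2.83 and 3.67 without.

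No gene passed the test of the difference between these effects (0 DEG, 0% of those tested, limma, smallest adjusted p 0.172, 904 genes at an unadjusted p below 0.05). With the replicate number as a block there were also 0 DEG, with 1604 genes at an unadjusted p below 0.05. In that limma fit the adjusted p was 0.0873 for FCN1 and CLEC7A and 0.106 for S100A12. The largest differences therefore are values and not calls. Entries without an ordinary gene symbol, mostly microRNAs, lay among the largest in both directions and are not described, such as MIR5703 (-3.49) and MIR7110 (2.44). S100A12 had 0 and 0.411 TPM in control, 8.39 and 6.56 with palbociclib, 1.37 and 4.53 with TCP and 527 and 386 in the combination, so that the effects differed by 4.14 ± 0.55 (unadjusted p 0.000144, adjusted p 0.193). FCN1 differed by 3.05 ± 0.47 and TLR8 by 1.75 ± 0.27. CLEC7A, the receptor for fungal glucans, was at most 0.111 TPM in control and TCP libraries, about 1 TPM with palbociclib (1.06 and 0.939) and 7.18 and 7.83 in the combination, a difference of 2.04 ± 0.24 (unadjusted p 5.65e-05, adjusted p 0.172).

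Other immune receptors were also highest in the combination. C5AR1, the receptor for complement C5a, had 0.571 and 0.392 TPM with palbociclib, 0.711 and 0.267 with TCP and 5.39 and 4.6 in the combination. LILRA5 had 3.57 and 3.34 TPM with palbociclib, 6.42 and 8.37 with TCP and 52 and 44.6 in the combination (difference 1.90 ± 0.21, adjusted p 0.172). LILRA3 (2.08 ± 0.30), CLEC5A (2.07 ± 0.69), CXCL14 (2.25 ± 0.26) and VNN2 (1.94 ± 0.63) complete the genes of large difference that were higher in the combination. Of the lists, Fc and leukocyte receptors had a median change of 1.78 with TCP and 0.86 without, pattern recognition genes 1.78 and 0.97, and 25 of 27 and 27 of 29 members had a difference above 0, beside 44.3% of all genes tested. The difference was not tested for a list. ORM1, an acute-phase protein gene, went the other way, with 90.6 and 64.5 TPM under palbociclib and 23.7 and 13.6 in the combination (-1.51 ± 0.46, adjusted p 0.575).

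The lists of the dividing cell had more negative medians with TCP than without, which was not tested either. Mitotic genes had a median of -1.49 with TCP against -1.17 without, with 49 and 38 called, and all 53 differences were below 0, with a median of -0.36. Replication genes had -1.20 against -0.93, with 37 and 21 called, and 47 of 49 differences below 0, beside 55.7% of all genes tested. CDK1 had 103 and 94.9 TPM in control, 95.6 and 89.1 with TCP, 45.7 and 40.9 with palbociclib and 24.2 and 24.2 in the combination, a difference of -0.71 ± 0.13 (unadjusted p 0.000766, adjusted p 0.246). The ATF4 list had the opposite order, at -1.38 with TCP against -1.77 without. TRIB3, a pseudokinase of that list, had 96.1 and 57.7 TPM in control, 66.2 and 28.3 with TCP, 8.13 and 7.62 with palbociclib and 6.71 and 6.39 in the combination.

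Interferon-stimulated genes had medians of -0.27 with TCP and -1.42 without, and all 29 differences were above 0, beside 44.3% of all genes tested, with a median of 0.80. The 2 libraries of TCP and of control were themselves far apart, replicate 1 being higher by a median of 1.80 with TCP and 1.23 in control on the log2 scale, against -0.12 in the combination. IFIT2 had 97.1 and 13.1 TPM with TCP, 168 and 65.4 in control, 7.57 and 6.12 with palbociclib and 12.3 and 8.66 in the combination, and its difference of 2.05 ± 1.20 lay within that spread (adjusted p 0.902). IFIT1 (2.13 ± 1.19) and IFIT3 (2.05 ± 1.12) were alike. The median with TCP was 0.58 without TCP replicate 1 and -1.37 without TCP replicate 2, so its direction rests on 1 library. CXCL10, from 42.9 and 13.2 to 4.2 and 4.82 TPM (-2.18 ± 0.45, adjusted p 0.00672), was the only member called, and leaving out 1 library gave counts from 0 to 4, with 0 without either combination library, where its adjusted p was 0.0396 and 0.0345.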

How the data were processed

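Libraries from 8 samples of MV4-11 cells were grouped by their labels, 2 in each of 4 groups. The authors deposited TPM, made from reads mapped to hg19 (GRCh37) with Subread and counted with featureCounts 1.6.4. The gene annotation and the strand setting are not given in the sources used here, so overlapping, antisense or near-identical genes can have exchanged reads. The depth is unknown, since TPM keep none, and abundant genes lower the rest because every library has the same sum.

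Deposited TPM were tested on the log2 scale after adding a pseudocount of 1, with limma 3.58.1 in R 4.3.3. The model held the 4 groups over 8 libraries, with a variance trend, and p-values were adjusted over the 14151 genes that passed the filter on low values. The added 1 understates the change of low genes. For 1 gene on its own, 2 libraries a group allow no two-sided exact permutation p under 0.333. The fit was tested on simulated data.

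Members and lists were chosen with earlier results of these data known. Of 31 lists 30 had tested members, mitochondrially encoded transcripts having no row in the table. The text names the 15 DEG that increased and the 15 that decreased most (libraries apart, mean of 5 TPM or more in the higher group), the drug targets, genes the study names for this line, up to 6 called and 4 small or opposed members per list, and the 10 largest differences of effects with ordinary symbols. TLR8, C5AR1, LILRA5, ORM1 and CDK1 as differences, TRIB3, and some list examples outside that rule were chosen after their values were seen. Deviations of same-numbered libraries correlated at 0.169 to 0.491 over the 6 pairs of groups (0.209 for TCP and the combination). From these values alone, the replicate number was taken as a possible pairing. It entered the model only in the alternative with a block, and the main fit left it out. As alternatives, the pseudocount was 0.1, the filter was dropped or raised to a mean of 5 TPM, values were quantile normalized or scaled by median ratios, the replicate number was a block, only the groups compared were fitted, the trend was dropped, the adjusted p was 0.05, and each library was left out. A few named items are not reported here.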

Additional observations from a re-analysis of the deposited data

How the results depend on the processing

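Counts of DEG for the combination against TCP ranged from 1286 to 1918 over the 17 alternatives, each within 1.5 times 1720. Under median-ratio scaling 602 genes were lower instead of 948. With the replicate block 1816 genes were called, 1718 of them shared with the 1720. Among the named genes the block added calls for ITGAM, HMGCS1 and VNN2 and removed none. For palbociclib against control, leaving out each library gave 783 to 1326 genes, the lowest without palbociclib replicate 2. The test of the difference of effects gave 0 genes except without a filter on low values, where it gave 7, all microRNA entries. Of 116 named DEG, 91 were called under all alternatives that tested them and 25 were lost in at least 1. When a library was left out, the lone library of its group was assumed to vary like the others.

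Changes of sign were found for 13 named genes, none of them a DEG. Under quantile normalization the log2 fold change was 0.021 for RB1, 0.10 for ATM, 0.011 for NLRP3 and 0.0043 for PYCARD. Under median-ratio scaling it was 0.084 for RB1, 0.030 for BRCA2, 0.13 for ATM, 0.019 for QARS, 0.032 for NLRP3 and 0.11 for PYCARD. Leaving out each library gave ranges of -0.0038 to 0.17 for GFI1, -0.32 to 0.085 for RB1, -0.30 to 0.54 for CDKN1A, -0.24 to 0.11 for ATM, -0.094 to 0.23 for RBL2, -0.11 to 0.19 for KIT, -0.21 to 0.019 for PYCARD, -0.045 to 0.47 for CASP1, -0.074 to 0.40 for NPC1 and -2.43 to 0.33 for IFIT1. Apart from the fewer samples or genes of some alternatives, the cause was not tested. Depth is unknown, and 2 libraries a group limit the precision of every value.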
